A study of Caenorhabditis elegans with 9 samples.

Results

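PES-1 peaks on chromosome IV of the nematode Caenorhabditis elegans were taken as all regions that the authors' combined peak list places on chromosome IV, 1033 of 7213. The peaks of chromosome IV in the lists of the biological replicates, 577 of 3488 for replicate 1 and 646 of 4185 for replicate 2, served as replicate support. The lists come from chromatin immunoprecipitation and sequencing (ChIP-seq), in which DNA bound by a protein is pulled down with an antibody and sequenced. All worms were L4 (last larval stage) hermaphrodites of strain OP87, outcrossed 3 times and grown at 20 °C. Formaldehyde at 2% is listed for all libraries. The strain carries the mutant allele ed3 of unc-119 on chromosome III and the transgene wgIs87, which was brought in by bombardment and holds both a working unc-119 and pes-1::TY1::EGFP::3xFLAG. No change of the resident pes-1 gene is listed, and the tagged protein was precipitated with goat anti-GFP. The labels give 9 libraries, namely 2 ChIP and 4 input (unprecipitated DNA) libraries for replicate 1 and 3 ChIP libraries for replicate 2. Whole worms were used, so the cells in which a region was bound are unknown. The groups are replicates of 1 strain at 1 stage, and no library from worms without the tag was used here, so signal that does not come from the tagged protein cannot be told apart.

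PES-1 is a forkhead transcription factor, a member of the winged-helix family of DNA-binding proteins, and in the worm embryo it acts partly redundantly with the forkhead factor FKH-2. Worm autosomes have a central part with dense, often highly expressed genes and 2 arms with more repeats and more recombination. Chromosome IV is best known for its piRNA genes, small-RNA genes that silence foreign sequence in the germline. In the RefSeq gene table of assembly WBcel235 it holds 14714 of them, or 95.8% of those on the 6 chromosomes, besides 3281 protein-coding genes. The pes-1 gene is itself on chromosome IV in that table. The peak positions are on build WormBase WS190, an annotation of which was not used here, so no peak was assigned to pes-1, to a piRNA gene or to any other gene, and regions are named by position.

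Each listed peak has a start, an end and a q-value from the authors' peak caller, and this q is the authors' own value. The q was under 0.01 for every peak in the lists. It is given as deposited or as −log10 q, which is larger for more significant peaks. No read counts are listed, so the depth behind a peak is unknown. There is 1 list per replicate, so no test between samples was possible. Intervals are exact binomial (Clopper-Pearson, 95%), cover counting error only and treat peaks as independent, although peaks cluster.

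Chromosome IV carried a moderate number of peaks for its length. Over the 17.5 Mb up to its last listed peak, it held 59.2 peaks per Mb when all combined peaks are counted, 33.0 for replicate 1 and 37.0 for replicate 2. In the combined list this was fewer than on III (108), I (101) and II (74.3) and more than on V (53.9) and X (50.8). The order was the same in replicate 1. In replicate 2, I had 34.7 peaks per Mb and so fewer than IV. Relative to protein-coding genes, IV had 31.5 combined peaks per 100 genes, against a range of 22.5 on V to 56.4 on III. Combined peaks covered 453 kb of IV, replicate 1 peaks 276 kb and replicate 2 peaks 244 kb, or 2.59%, 1.58% and 1.40% of its length. Among the 100 peaks with the smallest q of each list, 12 combined, 14 replicate 1 and 15 replicate 2 peaks lay on IV. IV supplied 14.3%, 16.5% and 15.4% of the respective lists, so its share of the best peaks was close to its share of all peaks. A q below 1e-10 was reached by 179 of the 1033 combined peaks, or 17.3%, against 18.4% of all combined peaks.

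The left part of chromosome IV was richer in peaks than the rest. Cut into 3 equal lengths of 5.82 Mb, the chromosome held 463 combined peaks in the left part, 291 in the middle and 279 in the right. Replicate 1 gave 260, 161 and 156, and replicate 2 gave 283, 176 and 187. In all lists the left part thus held the most peaks, and the middle and right parts differed little from each other. The left part had 79.5 combined peaks per Mb and the rest of IV 48.96. The combined densities stood in a ratio of 1.62 (interval 1.43 to 1.84), those of replicate 1 in a ratio of 1.64 (1.39 to 1.94) and those of replicate 2 in a ratio of 1.56 (1.33 to 1.83). By covered length the ratio was lower, at 1.41 in the combined list. There the median width was 351 bp (quartiles 200 and 522) on the left and 370.5 bp (268 and 547) in the rest. The lower quartile was also smaller on the left in replicate 1 (283 against 324 bp) and replicate 2 (207 against 245.5 bp).

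**Figure D1:**
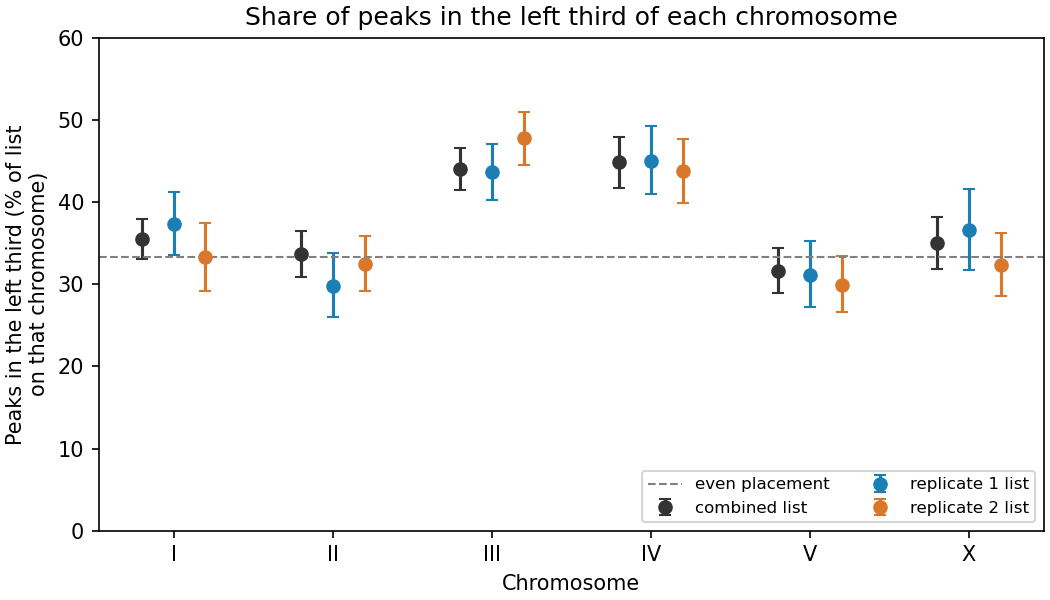
Share of each chromosome's peaks whose midpoint lies in its left part (y axis, percent), for the 6 chromosomes (x axis) and the combined, replicate 1 and replicate 2 lists; bars are exact binomial 95% intervals, which cover counting error only, and the dashed line is the 33.3% of even placement. IV, at 44.8%, 45.1% and 43.8%, and III lie above the line in all lists.

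Other chromosomes differed in this respect. The left to rest ratio in the combined list was 1.58 on III, 1.10 on I, 1.08 on X, 1.01 on II and 0.92 on V. In replicate 1 it ran from 0.85 on II to 1.55 on III, below the 1.64 of IV, and in replicate 2 from 0.86 on V to 1.83 on III, above the 1.56 of IV. A left excess of this size was therefore seen on III and IV. The plot of left shares by chromosome shows the intervals of III and IV apart from those of II and V in each list.

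The limits at 5 and 7 Mb used below were set with earlier results of these data known. Within the left part, peaks were denser in the first 5 Mb than after it. That stretch held 432 combined peaks (86.4 per Mb), 241 replicate 1 peaks (48.2 per Mb) and 270 replicate 2 peaks (54.0 per Mb). It took 41.8% of the peaks of IV in each list. The next 2 Mb, from 5 to 7 Mb, were sparse, with 37.0, 21.5 and 22.0 peaks per Mb. From 7 to 17 Mb the density was 50.3, 27.9 and 31.5 per Mb. By bins of 1 Mb, the fullest in every list was 2 to 3 Mb, with 116 combined, 61 replicate 1 and 74 replicate 2 peaks. The bin from 1 to 2 Mb followed in the combined list, with 93. The bin from 6 to 7 Mb held 33, 21 and 25. The bin from 7 to 8 Mb, with 73, 36 and 41, stood above both of its neighbours in each list.

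Taken over all q, the combined peaks of the left part resembled those of the rest in strength and replicate support. The median combined q was 6.16e-05 on the left and 9.48e-05 in the rest. The share with q below 1e-10 was 18.4% on the left (14.9 to 22.2%) and 16.5% in the rest (13.5 to 19.8%). Peaks of both replicates overlapped 167 of the 463 left peaks, or 36.1% (31.7 to 40.6%), and 214 of the 570 others, or 37.5% (33.6 to 41.7%). Peaks in neither replicate made up 27.0% (23.0 to 31.3%) and 27.9% (24.2 to 31.8%). These intervals overlapped widely in each pair. Of the replicate 1 peaks, 61.9% on the left (55.7 to 67.9%) and 68.1% in the rest (62.7 to 73.2%) overlapped a replicate 2 peak. In the other direction the shares were 59.4% and 60.3%. Spacing differed with density: the median distance between neighbouring combined peaks was 5157 bp on the left and 9976 bp in the rest. Wide peaks, of at least 1000 bp, were 18 of 463 on the left, or 3.89% (2.32 to 6.07%), and 40 of 570 in the rest, or 7.02% (5.06 to 9.43%). The corresponding shares were 3.08% and 6.62% in replicate 1, and 2.83% and 3.86% in replicate 2. They were lower on the left in each list. The intervals overlapped, which is not a test of the difference.

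Peaks were spread unevenly over 100 kb windows. Counting each peak at its midpoint in 175 windows, the median window held 5 combined, 3 replicate 1 and 3 replicate 2 peaks. The fullest held 24, 14 and 19, and 11 of the 24 combined peaks had a q below 1e-5. The variance of the window counts was 2.52 times their mean for the combined peaks, 1.84 for replicate 1 and 2.13 for replicate 2. On the other chromosomes, each taken alone, this ratio ran from 1.48 on X to 3.61 on III for the combined peaks, from 1.17 to 3.01 for replicate 1 and from 1.14 to 3.50 for replicate 2, so IV lay within their range. The median combined window held 7.5 peaks in the left part (58 windows) and 4 in the rest (117 windows). At least 10 combined peaks were found in 26 windows, 18 of them on the left. At least 10 peaks of a replicate were found in 5 windows for replicate 1 and 6 for replicate 2, all on the left.

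The fullest window of each list was 2600001 to 2700000, and its right neighbour, 2700001 to 2800000, was the second fullest in the combined list and in replicate 2, with 19 and 16 peaks, and held 11 in replicate 1. The pair held 43 combined peaks, 25 of replicate 1 and 35 of replicate 2. This was 4.16%, 4.33% and 5.42% of the peaks of IV on 1.15% of its length. Of the 43, 16 overlapped both replicates (37.2%, 23.0 to 53.3%), close to the 36.9% of IV as a whole. Neither replicate held 8 of them (18.6%, 8.39 to 33.4%), against 27.5% on IV. Their median width was 295 bp and their median spacing 1610 bp. Of the 43, 9 had a q below 1e-10, against 17.3% on IV and 18.4% of all combined peaks. The counts and the short spacing follow from choosing the most crowded pair of windows. The strongest were 2601991 to 2604822 (q = 2.36e-51) and 2725779 to 2726204 (q = 1.10e-29). From 2663007 to 2666978, 5 combined peaks followed each other with gaps under 1000 bp, where replicate 2 had a chain of 6.

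The other 6 of the 8 fullest windows held between 13 and 17 combined peaks. The window 800001 to 900000 held 17 combined, 13 replicate 1 and 12 replicate 2 peaks. The window 2300001 to 2400000 held 17, 10 and 12, among them 2388900 to 2389350, one of the strongest peaks of IV. The window 4400001 to 4500000 held 14, 8 and 13 and was the most covered of the 8, with 13297 bp in peaks and 4 peaks of at least 1000 bp. The window 1000001 to 1100000 held 13, 9 and 8. In 2 windows the combined count was less well carried by the replicates. The window 3500001 to 3600000 had 14 combined peaks but 5 and 6 replicate peaks, 1 combined peak in both replicates and no q below 1e-10. The window 13200001 to 13300000, which had 14, 5 and 8, lay in the right part. The window 1000001 to 1100000 tied with 4 other windows at 13 peaks and was taken from them by position. All 12 windows with at least 13 combined peaks, 10 on the left and 2 in the right part, held 184 peaks, or 17.8% of IV on 6.87% of its length. Of the 184, 38.6% (31.5 to 46.0%) overlapped both replicates, against 36.9% on IV as a whole.

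**Figure D2:**
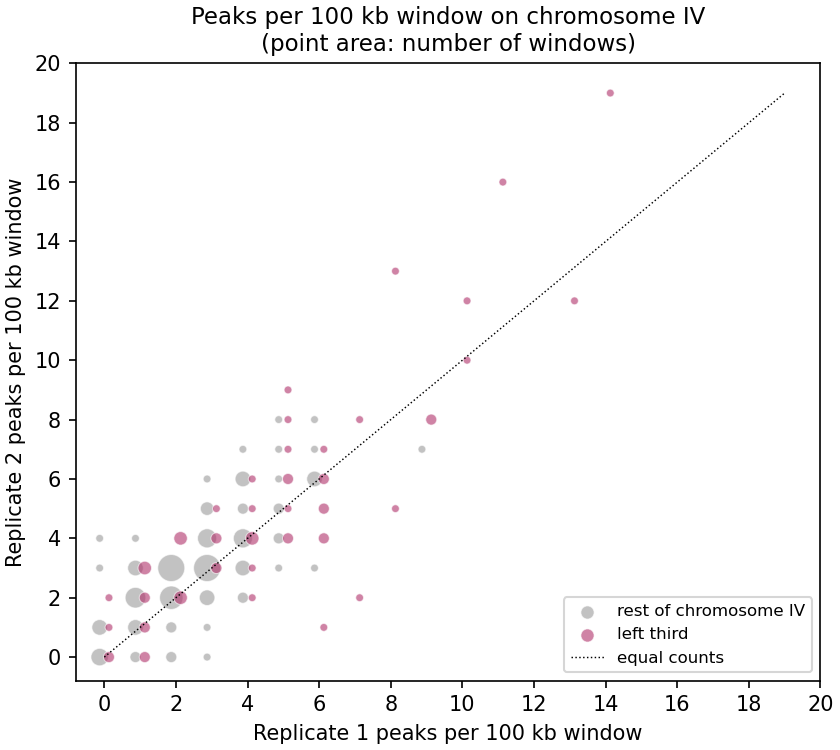
Replicate 1 (x axis) and replicate 2 (y axis) peaks in each of the 175 windows of 100 kb on chromosome IV; point area is the number of windows at those counts, windows of the left part and of the rest are shifted sideways from each other to be visible, and the dotted line marks equal counts. The windows with at least 10 peaks of a replicate all belong to the left part, the fullest with 14 and 19.

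Window counts of the replicates moved together. Over the 175 windows Spearman's rho was 0.77 and Pearson's r 0.84, given as a description, since windows of 1 pair of lists are not independent samples. Without the 2 fullest windows r was 0.80. Within the left part rho was 0.81, and within the rest 0.73. Replicate 2 had the higher count in 78 windows, replicate 1 in 39, and 58 were equal, with 646 and 577 peaks on IV in all. The plot of window counts shows no window with 5 or more peaks in 1 replicate and none in the other.

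Replicate 1 had no peak in 15 windows and replicate 2 in 14. Distances over 100 kb between neighbouring peaks numbered 16 for combined, 32 for replicate 1 and 29 for replicate 2 peaks. Combined peaks were absent from 3 windows, 3900001 to 4000000, 13100001 to 13200000 and 16200001 to 16300000; the last 2 were also empty in both replicates, and the first held 1 replicate 2 peak. The longest distance between neighbouring combined peaks was 156 kb, from 4930973 to 5087040, at the border between the crowded first 5 Mb and the sparse stretch after it. It was picked after the values were seen, and neither replicate had a peak in it. The position of pes-1 on this build was not used here, so whether this stretch holds that gene, or sequence carried by the transgene, was not tested. The surrounding peak-free stretch was 289 kb in replicate 1, the longest of that list on IV, and 206 kb in replicate 2, the second longest. Longest distances on the other chromosomes ran from 103 kb on III to 310 kb on V. The smallest distance between neighbours was 202 bp among combined peaks, 200 bp in replicate 1 and 201 bp in replicate 2, so no closer pair is listed.

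The 10 regions with the smallest combined q were found in both replicates, 6 of them in the left part, 1 in the middle and 3 in the right. The strongest was 1419859 to 1420568, 710 bp wide, with a combined q of 6.34e-75 and replicate values of 1.26e-50 and 2.83e-31. It was first on IV in replicate 1 and second in replicate 2. The second, 14032423 to 14034762 in the right part, was 2340 bp wide, with q values of 6.11e-69, 2.38e-44 and 2.18e-22, and ranked 2 and 9. The third, 3050226 to 3051073, had q values of 9.93e-61, 2.78e-38 and 2.20e-27. All of these had a smaller q in replicate 1 than in replicate 2.

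The next regions had similar ranks in the replicates. The peak 2388900 to 2389350, 451 bp wide, had q values of 2.68e-60, 3.06e-40 and 1.69e-25. The peak 17249676 to 17250113, 438 bp wide and near the right end, had 8.30e-58, 1.73e-41 and 3.61e-28, and ranked 4 on IV in each replicate. The peak 654715 to 655406 had 2.89e-54, 1.16e-41 and 4.14e-31 and ranked 3 in each. Of the remaining regions, 8431476 to 8433265, the 1 in the middle part and 1790 bp wide, had 4.58e-52, 1.21e-30 and 5.82e-27, the closest pair of replicate values among the 10. The peak 13240134 to 13240861, 728 bp wide, had 1.58e-44, 2.83e-35 and 3.29e-23.

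Region 2601991 to 2604822 and region 4749874 to 4750402 departed from this pattern. The former, 2832 bp wide with a combined q of 2.36e-51, was called as 2 peaks in replicate 1, the better at q = 3.00e-23, and as 4 in replicate 2, the best at q = 3.46e-05. It ranked 13 and 190 on IV in the replicates, and at a reciprocal overlap of 50% it was matched in replicate 1 but not in replicate 2, while the other 9 were matched in both. The latter, 529 bp wide with a combined q of 2.88e-44, was the 1 region of the 10 with the smaller q in replicate 2. There it was the strongest peak of IV at q = 1.05e-35, against rank 14 and q = 3.13e-23 in replicate 1. Of the 10 regions, 8 were among the best 10 of IV in replicate 1 and 9 in replicate 2. Since each list gives 1 value per region, no region was tested between replicates.

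**Figure D3:**
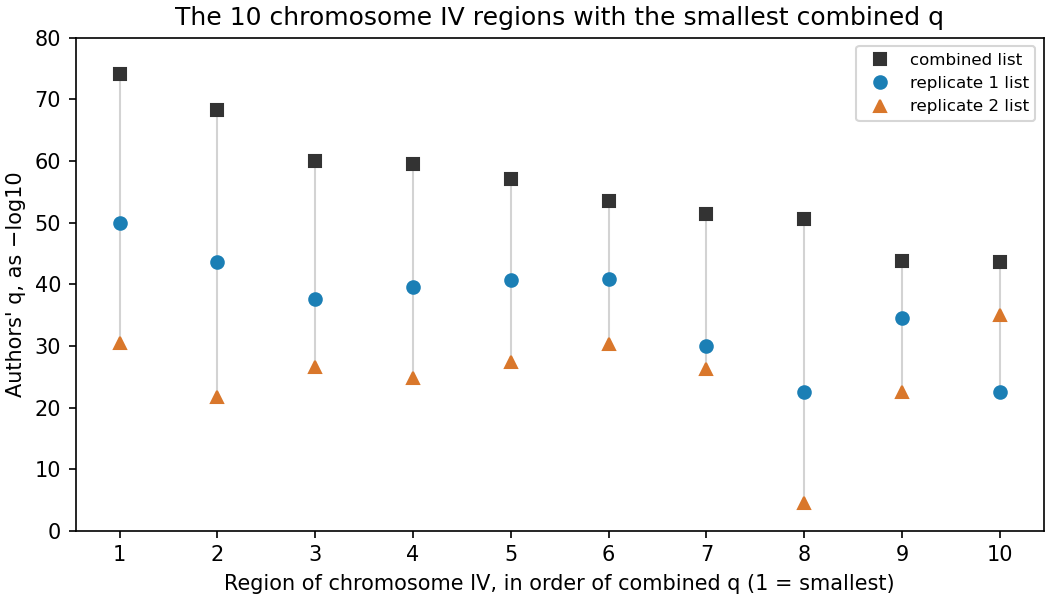
The authors' q as −log10 (y axis) for the 10 chromosome IV regions with the smallest combined q (x axis, in that order), in the combined list and for the best overlapping peak of each replicate; grey lines join the values of a region. Replicate 1 lies above replicate 2 in 9 of 10 regions, region 8 (2601991 to 2604822) has the lowest replicate 2 value at 4.46, and region 10 (4749874 to 4750402) is the exception, with 22.5 in replicate 1 and 34.98 in replicate 2.

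Peak widths on IV were close to those elsewhere. The median combined width was 363 bp (quartiles 234 and 531), that of replicate 1 was 372 bp (309 and 534) and that of replicate 2 was 327 bp (224 and 456). Combined medians on the other chromosomes ran from 314 bp on III to 374 bp on X. Wider peaks tended to have smaller q: Spearman's rho between width and −log10 q was 0.62 over the combined peaks of IV, 0.45 in replicate 1 and 0.56 in replicate 2, given as a description. At least 1000 bp was reached by 58 combined peaks, or 5.61%, against 5.24% of all combined peaks. Of the 58, 46 overlapped both replicates, 4 overlapped neither and 37 had a q below 1e-10. The 58 made up 19.6% of the bases covered on IV. On the other chromosomes 233 wide peaks overlapped both replicates, 42 replicate 1 alone, 26 replicate 2 alone and 19 neither. The same classes held 46, 5, 3 and 4 on IV. At the other end, 53 combined peaks were under 50 bp, 2 of them a single base. Of the 53, 43 were in neither replicate and none was in both. On the other chromosomes, peaks under 50 bp numbered from 52 of 900 (X) to 82 of 1528 (I). There, 280 of them were in neither replicate, 52 in replicate 2 alone, 8 in replicate 1 alone and none in both.

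The widest regions were called as 1 long peak in the combined list and often as shorter pieces in replicate 2. The widest, 14610712 to 14614604, spanned 3893 bp with a combined q of 1.52e-24. Replicate 1 covered 63.9% of it with 1 peak, and replicate 2 covered 41.8% with 2 peaks. The second, 17278197 to 17281662, spanned 3466 bp with a q of 1.88e-35 and was covered to 96.8% and 85.7%. The third was the 2832 bp region at 2601991, covered to 85.4% and 45.7%. The region 4468023 to 4470684, 2662 bp wide with a q of 2.80e-39, lay wholly within a longer replicate 1 peak of 4152 bp, 4468020 to 4472171, the widest of that list on IV. That peak reached over 2 combined and 3 replicate 2 peaks. The fifth, 4212310 to 4214962, spanned 2653 bp with a q of 1.71e-30 and was covered to 94.1% and 48.8%. In each of these 5 regions replicate 2 covered less of the combined peak than replicate 1. Over all of IV, 5 combined peaks held several replicate 1 peaks and 16 held several replicate 2 peaks; the 19 peaks concerned had a median width of 1273 bp.

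Of the 1033 combined peaks, 381 overlapped peaks of both replicates by at least 1 bp, or 36.9% (33.9 to 39.9%), against 32.7% of all combined peaks. Among those of IV with a q below 1e-5 the share was 81.8%, and the share over all chromosomes at this limit was not computed. Replicate 1 alone supported 182, or 17.6% (15.3 to 20.1%), against 14.6% of all. Replicate 2 alone supported 186, or 18.0% (15.7 to 20.5%), against 19% of all. Neither replicate held 284, or 27.5% (24.8 to 30.3%), against 33.7% of all. Among single chromosomes the share in neither was 50.5% on I and ran from 27.0% on III to 33.2% on X elsewhere, so IV was at the low end together with III and II (27.8%). The share in both was highest on III (38.0%), followed by IV. Chromosome I lifts the share in neither over all peaks. Which libraries made the combined list is not stated, so it may share reads with the replicate lists.

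Replicate support followed q closely, which was not particular to IV. The median q of combined peaks in both replicates was 3.04e-10 on IV and 1.60e-11 on the other chromosomes. For peaks in neither it was 0.00363 and 0.00228, and none of these had a q below 1e-10, on IV or elsewhere. The quartile groups below were formed for IV alone. Among the 259 combined peaks of IV in the quartile group with the smallest q (up to 1.57e-08), 245 overlapped both replicates and none overlapped neither. In the second group (up to 6.75e-05) 126 of 258 were in both, or 48.8%, and 8 in neither. In the third (up to 0.00176) 10 were in both and 85 in neither. In the last, none of 258 was in both (exact interval up to 1.42%) and 191, or 74.0%, were in neither. In the second group the share in both was 40.7% in the left part (31.9 to 49.9%) and 56.3% in the rest (47.5 to 64.8%). These intervals overlap, but this does not show that the shares are alike, and the difference was not tested. In the first group the share in both was 95.7% and 93.8%. Widths followed the same order, with medians of 481 bp for peaks in both replicates, 372 bp for replicate 1 alone, 282 bp for replicate 2 alone and 200 bp for neither. A wide peak has more bases with which to touch a replicate peak, and how far this sets the order was not tested.

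**Figure D4:**
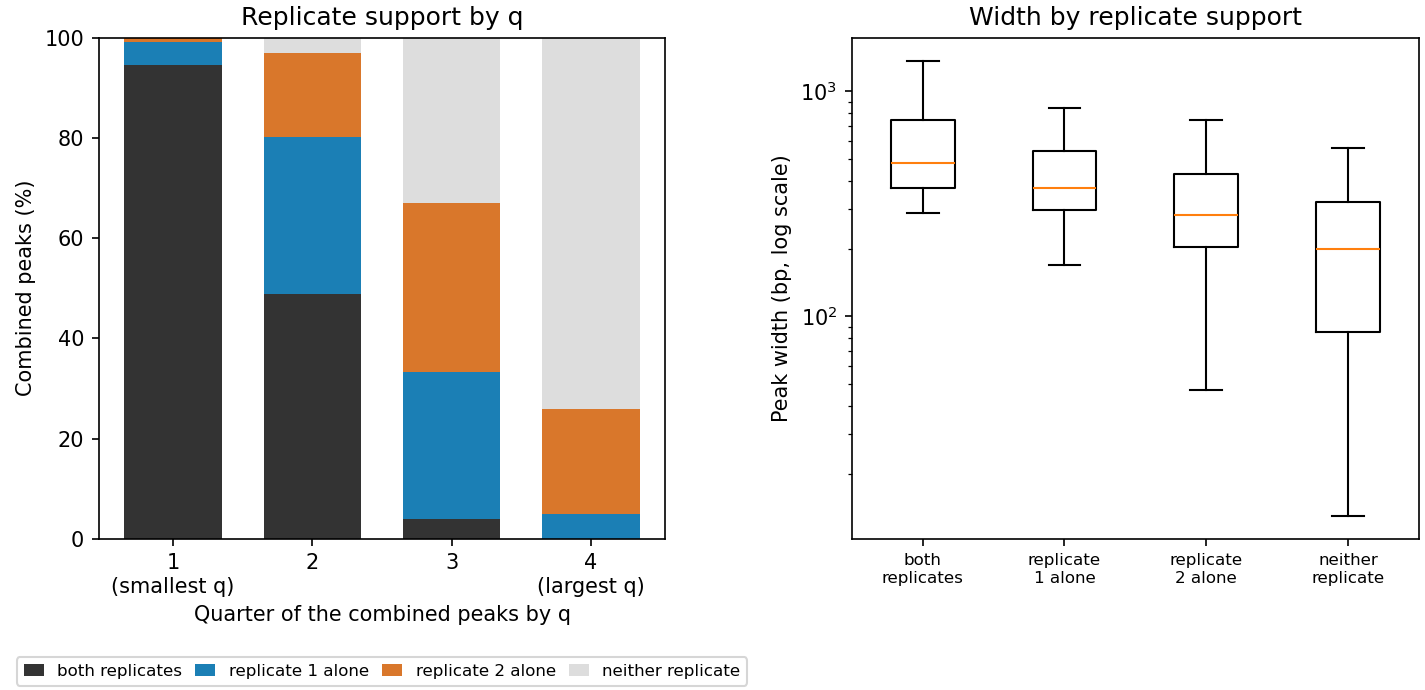
Left, the share of combined peaks on chromosome IV overlapping both replicates, 1 replicate or neither (y axis, percent) in the 4 quartile groups of combined q (x axis); right, peak width (y axis, bp, log scale) by replicate support, with boxes from the lower to the upper quartile, a line at the median and whiskers from the 5th to the 95th percentile. Support by both replicates goes from 94.6% to 0%, and median width from 481 bp to 200 bp.

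Compared directly, 377 of the 577 replicate 1 peaks of IV overlapped a replicate 2 peak, or 65.3% (61.3 to 69.2%), against 67.7% of all replicate 1 peaks. Of the 646 replicate 2 peaks 387 overlapped a replicate 1 peak, or 59.9% (56.0 to 63.7%), against 57.3% of all. The 50 best replicate 1 peaks of IV were all found in replicate 2, and 49 of the 50 best replicate 2 peaks in replicate 1. Among the best 200 the counts were 180 and 189. The best peaks of the other chromosomes were not counted in this way, so this overlap is not shown to be particular to IV. Over 375 mutual largest overlaps, the midpoints lay a median of 32 bp apart, and in 299 pairs (79.7%) within 100 bp. The −log10 q values of these pairs correlated with a Spearman's rho of 0.64 and a Pearson's r of 0.81, which is a description over regions of 1 pair of lists. Replicate 1 had the smaller q in 261 pairs (69.6%), in 70.2% on the left and 69.2% in the rest. On the other chromosomes this share ran from 54.6% on X to 78.4% on I.

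The pairs farthest apart favoured replicate 1, with −log10 q differences (replicate 1 minus replicate 2) of 28.8, 22.0 and 19.4. The largest differences in favour of replicate 2 were smaller in size, at -12.5, -8.91 and -6.15. The 4152 bp replicate 1 peak at 4468020 had a −log10 q of 33.4, and its partner in replicate 2 lay 28.8 units below it. In favour of replicate 2, after the peak at 4749874 described above, came a region with a replicate 2 peak from 16398050 to 16400077 at 12.5 and a replicate 1 peak from 16398167 to 16398629 at 3.58. The strongest peak of replicate 1 without any overlap in replicate 2 was 2708285 to 2709027 (q = 2.46e-12), and that of replicate 2 without overlap in replicate 1 was 2664170 to 2665266 (q = 8.96e-10). Both are in the crowded stretch from 2.6 to 2.8 Mb and in the combined list. These pairs and peaks were chosen after their values were seen.

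Combined peaks seen in neither replicate were weak. The smallest q among the 284 was 3.59e-06, for a 1371 bp peak from 15473518 to 15474888, which ranked 401 on IV and lay 774 bp from the nearest replicate 1 peak and 772 bp from the nearest of replicate 2. It was followed by 2614346 to 2614727 (q = 6.05e-06), 17174083 to 17174620 (q = 1.65e-05), 1708423 to 1708948 (q = 2.36e-05) and 2309918 to 2310024 (q = 2.92e-05). Of these 5, the peak at 17174083 was the farthest from any replicate peak, at 23456 bp. The other 4 had peaks of both replicates within 2294 bp.

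Conversely, 12 of 577 replicate 1 peaks (2.08%, 1.08 to 3.60%) and 61 of 646 replicate 2 peaks (9.44%, 7.30 to 11.96%) overlapped no combined peak. None of them was shared between the replicates. On the other chromosomes the replicate 1 counts were 7 of 634 (I), 4 of 547 (II) and 14 of 820 (III). V had 10 of 527 and X 3 of 383, and IV had the highest share. The replicate 2 counts were 15 of 523 (I), 81 of 774 (II) and 54 of 950 (III). V had 78 of 701 and X 81 of 591, and the share of IV lay within the range of the others. The smallest q among the 12 was 0.00156, at 4477020 to 4477508, followed by 1175394 to 1175554 (0.00231) and 3310780 to 3311614 (0.00340). Among the 61 they were 0.000193 at 4450428 to 4450960, 0.000385 at 653310 to 653632 and 0.000615 at 9048124 to 9048468. The first listed combined peak of IV was 51196 to 51674 (q = 0.00784) and the last 17461345 to 17461668 (q = 0.000104), and both overlapped replicate 1 alone.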

How the data were processed

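Per the file headers the 3 peak lists are on WormBase WS190, and per their method column peaks were called with PeakSeq. No version, aligner, threshold or control is stated for any list, nor how the combined list was built. The q-value of each peak is as deposited by the authors. Replicate lists were matched to samples by name, which begins the sample titles; the labels do not say that replicates were separate worm cultures. Depth is unknown.

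Python 3.11.15 with pandas 2.3.3, numpy 2.4.6, scipy 1.17.1 and matplotlib 3.10.9 were used. Peaks were placed by midpoint, chromosome length was the last peak end over the lists, and overlap meant at least 1 bp. No test or p-value is given. The routines were tested on simulated data. Named regions were the 10 smallest q, the 5 widest, the 8 fullest windows, the 5 smallest q in neither replicate, the 3 smallest q of each replicate outside the combined list, and the first and last peak. Members, measures and rules were chosen with earlier results of these data known. Alternatives were other boundaries, overlaps, q limits, window starts and joined peaks.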

Additional observations from a re-analysis of the deposited data

How the results depend on the processing

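The left to rest density ratio was above 1 under each of 7 alternative settings in all 3 lists, from 1.35 to 1.81; by covered length the combined ratio was 1.41. The share of combined peaks in both replicates was 30.6% at 50% reciprocal overlap and 81.8% among peaks with q below 1e-5. Overlap with replicate 1, whatever replicate 2 held, was found for 54.5%, and overlap with replicate 2, whatever replicate 1 held, for 54.9%. Both are higher by construction. The fullest window held 11 peaks with q below 1e-5. The median width was 488 bp with q below 1e-5 and 379.5 bp with peaks under 1000 bp apart joined; the latter follows from the joining, and the cause of the other changes was not tested. Keeping only peaks of at least 50 bp, added after seeing the data, left ratios and shares within their intervals. No paired analysis was possible because each replicate has 1 list. Read depth is unknown, so absence of a region from a list does not show that PES-1 was absent there.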
